A study of Mus musculus with 2 samples.

Results

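The pyruvate dehydrogenase complex and the enzymes that switch it off and on were examined in B-ALL cells of mice, that is, in acute lymphoblastic leukaemia of B lymphocyte precursors. The set holds 10 genes of the 20618 with a named probe on the array, chosen by name as parts and regulators of the complex. They are 5 subunit genes (Pdha1, Pdhb, Dlat, Dld, Pdhx), 4 kinase genes (Pdk1, Pdk2, Pdk3, Pdk4) and 1 phosphatase gene (Pdp1). They were found through the RefSeq accession given for each probe, which gave 14 probes. The cells came from bone marrow of C57BL mice of 8 weeks and were sorted by the fluorescence ratio at a pair of wavelengths of SoNar, a protein sensor that reports the cytosolic balance of NADH and NAD+. One group, SoNar-high, had a high ratio and the other, SoNar-low, a low one, with 1 array each. The sample titles call the same samples N-myc-high and N-myc-low, which nothing in the labels explains. The labels do not say how the leukaemia was made, which agent or allele drives it, or whether animals were pooled.

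The complex stands at the gate between glycolysis and the mitochondrial tricarboxylic acid cycle. It converts pyruvate to acetyl-CoA and makes NADH inside mitochondria, in competition with lactate dehydrogenase, which uses up NADH in the cytosol. Phosphorylation of its alpha subunit by the Pdk kinases stops the reaction, and the phosphatases restart it. Transcript levels therefore describe only part of the control, since phosphorylation is not seen on an expression array.

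No measured gene of the set differed by 2-fold or more between the arrays. The counts were 0 of 9 higher and 0 of 9 lower, where 6.55% of the 10517 genes measured on both arrays passed that limit in either direction. In the main scaling, the largest differences were those of the phosphatase gene Pdp1 and of the shared dehydrogenase gene Dld, both lower in SoNar-high. Their log2 differences, taken here as SoNar-high minus SoNar-low, were -0.66 and -0.60. With quantile normalization, with cyclic loess and in the authors' deposited value table, Dlat was further below 0 than Dld. Dlat was at -0.67, -0.59 and -0.74 there, and Dld at -0.41, -0.36 and -0.39. The 9 values of the main scaling ran from -0.66 to 0.13, and 8 of 9 were below 0, as were 63.2% of all measured genes. The median over all measured genes was itself -0.17, so values are also given relative to it. All 9 lay between the 5th and 95th percentiles of the measured genes, which were -0.83 and 0.99.

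Since each group is a single array, the differences could not be tested against replicates, and their precision is limited by that number. Each member probe was printed as 1 spot. The error attached to each difference is the scanner software's own estimate for both spots, which was between 10% and 14.8% of the signal for the 13 measured probes. It is a model of the spot and does not include the spread between mice or sorts. Repeat spots of one probe elsewhere on the arrays differed less, the median SD of their log2 differences being 0.15 over the 193 such probes measured on both arrays. Different probes of one gene disagreed more, with a median gap of 0.43 over the 2021 genes with exactly 2 measured probes. The share of the 43020 non-control spots called well above background was 72.9% in SoNar-high and 44.8% in SoNar-low. The arrays were scanned in different sessions, so scan and group cannot be told apart. In a bulk sort, fewer cells of a type and less RNA per cell cannot be told apart either.

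**Figure D1:**
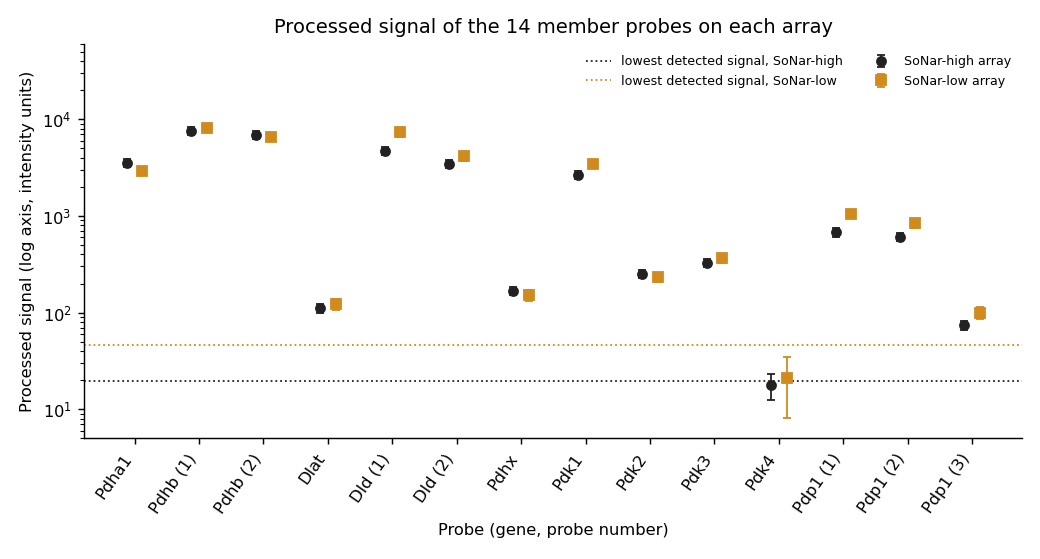
Processed signal (log axis, intensity units) of the 14 member probes on the SoNar-high array (black circles) and the SoNar-low array (orange squares), with the software's error as bars. Dotted lines mark the lowest signal called well above background on each array, 19.7 and 46.4. Only the Pdk4 probe lies below the line of its own array on both arrays.

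Among the subunits, Pdha1 encodes the catalytic alpha subunit that binds thiamine pyrophosphate and carries the regulatory phosphorylation sites. Its probe read 3548 in SoNar-high and 2929 in SoNar-low. After scaling, the log2 difference was 0.13 ± 0.20 (software error), so the gap was smaller than the error. It was the only measured member above 0, and it lay 0.30 above the median of all genes. Pdhb, the beta subunit of the same decarboxylase, has 2 probes. One read 7543 against 8135, a log2 difference of -0.25 ± 0.20, and the other 6876 against 6556, a difference of -0.08 ± 0.20. The mean of -0.17 was the same as the all-gene median. Relative to that median Pdha1 thus stood higher by more than its spot error, and Pdhb did not.

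Dlat encodes the acetyltransferase that forms the core of the complex, and Pdhx the binding protein that anchors Dld to that core. Both probes were dim. Dlat read 112 in SoNar-high and 121 in SoNar-low, a difference of -0.26 ± 0.25. Pdhx read 168 and 153, a difference of 0.00 ± 0.24 (SoNar-high higher in signal, equal after scaling). Neither difference was clearly larger than its error. On the SoNar-low array these signals were only 2.62 times and 3.29 times the lowest detected one. In the authors' deposited value table the same probes had differences of -0.74 and -0.34, and with quantile normalization and cyclic loess Dlat was at -0.67 and -0.59. Normexp gave -0.25 for Dlat. The filters on dim probes kept its only probe, so they could not change its value.

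Dld encodes the dehydrogenase that reoxidises the lipoyl arms and passes the electrons to NAD+. Its probes read 4689 on the SoNar-high array against 7353 on the SoNar-low array, and 3460 against 4139. Both were lower in SoNar-high, with log2 differences of -0.79 ± 0.20 and -0.40 ± 0.20. Both also lay below the all-gene median, as in 26.4% of the genes with exactly 2 measured probes. The gene mean of -0.60 corresponds to a signal 1.51-fold lower in SoNar-high, and lay 0.43 below the all-gene median at percentile 15.8 of all measured genes. With quantile normalization the difference was -0.41, or 0.20 below the all-gene median of that setting. In the authors' deposited value table it was -0.39, or 0.17 below the median there.

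The kinases were measured for 3 of 4 genes. Pdk1, a kinase gene known to be induced by the hypoxia factor Hif1a, read 2661 in SoNar-high and 3452 in SoNar-low. Its log2 difference was -0.52 ± 0.20, or 1.43-fold lower in SoNar-high, at percentile 21.0. It lay 0.35 below the all-gene median, and 0.09 below it with quantile normalization. Pdk2, a widely expressed kinase gene, read 253 and 234, a difference of -0.03 ± 0.22. Pdk3 read 327 and 366, a difference of -0.31 ± 0.21. The Pdk2 value was smaller than its error and that of Pdk3 lay 0.14 below the all-gene median, so of the 3 only Pdk1 stood away from that median by more than its spot error, and not with every normalization.

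Pdk4, a kinase gene known for its induction by fasting, glucocorticoids and fatty acids, was not well above background on either array. Its signals were 17.7 ± 5.26 in SoNar-high and 21.3 ± 13.1 in SoNar-low (software error), under the lowest detected signal of each. No fold is given for it. The sequence in front of Pdk4 is poorer in CpG dinucleotides than that of most other members. In the 250 bases upstream of the RefSeq start (GRCm38.p6), the ratio of observed to expected CpG dinucleotides was 0.28 for Pdk4, with 6 CpGs. The median over 32851 promoters was 0.37. The starts of the other members in the table ran from 0.64 to 1.02, apart from a second Pdk1 start at 0.22. Pdp1 is not matched there, which leaves 9 members with 11 starts. This is a description of 1 undetected gene beside 8 measured ones, with no test. The kinase promoters with the most and the fewest CpGs at their first start are shown beside that of Pdk1, with each CpG in capitals, since the contrast lies within the kinase family. Pdk1 is at chr2:71872974-71873223 on the plus strand with 19 CpGs, Pdk3 at chrX:93832151-93832400 on the minus strand with 29, and Pdk4 at chr6:5496279-5496528 on the minus strand.
Pdk1: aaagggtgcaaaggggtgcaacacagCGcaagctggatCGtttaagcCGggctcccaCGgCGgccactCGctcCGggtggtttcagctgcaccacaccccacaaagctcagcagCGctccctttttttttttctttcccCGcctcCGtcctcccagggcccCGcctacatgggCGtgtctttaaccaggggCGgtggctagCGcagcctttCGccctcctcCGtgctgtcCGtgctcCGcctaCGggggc
Pdk3: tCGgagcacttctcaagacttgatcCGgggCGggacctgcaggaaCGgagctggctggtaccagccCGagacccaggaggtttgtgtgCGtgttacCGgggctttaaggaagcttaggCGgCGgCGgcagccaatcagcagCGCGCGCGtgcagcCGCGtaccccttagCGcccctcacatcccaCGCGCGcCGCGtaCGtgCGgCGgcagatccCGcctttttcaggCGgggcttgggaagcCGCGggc
Pdk4: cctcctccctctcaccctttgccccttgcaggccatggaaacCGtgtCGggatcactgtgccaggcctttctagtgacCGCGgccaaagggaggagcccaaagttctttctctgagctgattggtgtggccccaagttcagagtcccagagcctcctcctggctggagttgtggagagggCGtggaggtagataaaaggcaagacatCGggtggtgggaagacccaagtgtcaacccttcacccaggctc

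Pdp1 encodes the calcium-stimulated catalytic subunit of the phosphatase that reactivates the complex. Its 3 probes, all assigned to the same transcript accession, read 674, 605 and 74.0 in SoNar-high and 1051, 841 and 99.9 in SoNar-low. Each probe was lower in SoNar-high, with log2 differences of -0.79 ± 0.20, -0.62 ± 0.21 and -0.58 ± 0.27. All 3 also lay below the all-gene median, which was so for 16.5% of the 322 genes with exactly 3 measured probes. The spread of the 3 Pdp1 probes, 0.21 in the main scaling, was smaller than the median gap between 2 probes of a gene. In the authors' deposited value table they were further apart, at -0.66, -0.55 and -1.21. The third probe is dim, at 2.15 times the lowest detected signal on the SoNar-low array. The gene mean of -0.66 was 1.58-fold lower in SoNar-high and at percentile 12 of all measured genes. It remained between -0.39 and -0.81 relative to the all-gene median over the 15 settings tried.

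**Figure D2:**
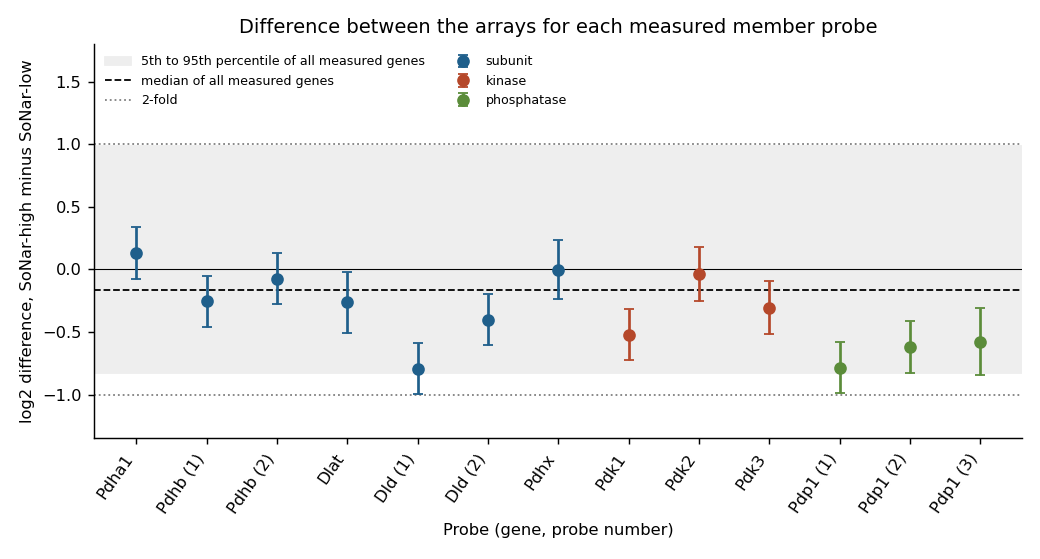
SoNar-high minus SoNar-low, as log2 difference, for the 13 member probes measured on both arrays, coloured by role, with the software's error as bars. The grey band spans the 5th to 95th percentiles of all measured genes, the dashed line is their median of -0.17 and dotted lines mark 2-fold. Every probe lies inside the band, with the lower Dld probe and the lowest Pdp1 probe, both at -0.79, near its lower edge.

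Compared as groups, the subunits had a median log2 difference of -0.17 over 5 genes and the kinases with the phosphatase one of -0.41 over 4 of 5 genes, against -0.17 for all measured genes. The subunit median was thus 0.25 higher. This gap was 0.04 with quantile normalization, 0.08 with cyclic loess and 0.02 in the authors' deposited value table. The gap between the complex and its regulators thus shrank to near 0 in these settings, and the ranges overlapped, from -0.60 to 0.13 for the subunits and from -0.66 to -0.03 for the regulators. The kinases and the phosphatase oppose each other in function, yet Pdk1 and Pdp1 both read lower in SoNar-high.

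**Figure D3:**
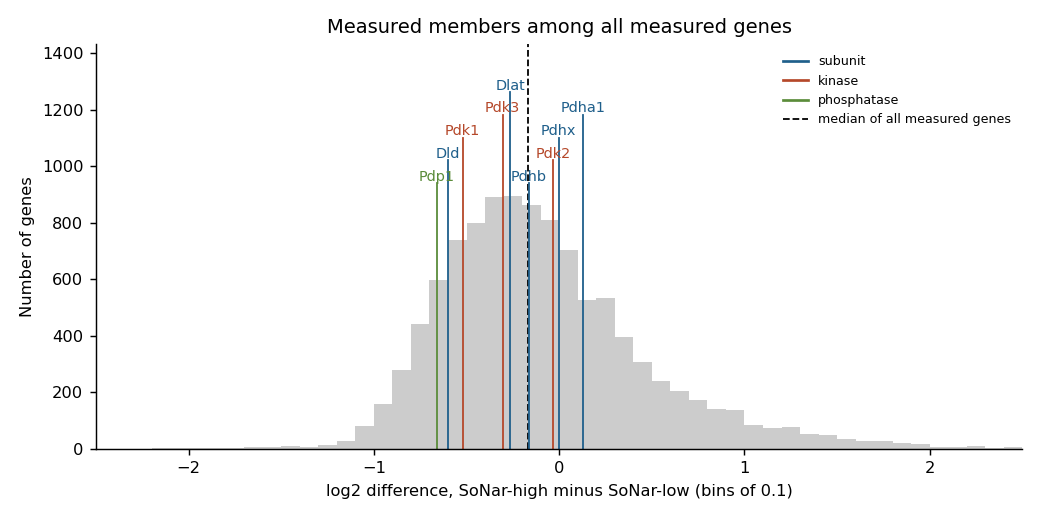
Number of genes (vertical axis) by log2 difference, SoNar-high minus SoNar-low, for the 10517 genes measured on both arrays, with the 9 measured members as lines coloured by role. The dashed line is the all-gene median of -0.17, and the members lie from -0.66 (Pdp1) to 0.13 (Pdha1), within the bulk of the distribution.

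The members responded to the processing in different ways. Relative to the all-gene median of each setting, 5 of the 9 (Dlat, Dld, Pdk1, Pdk3 and Pdp1) were below it in all 15 settings, of which several differ only by a shift common to all genes. By definition 5258 of the 10517 measured genes lay below the median in the main setting. The share of genes below the median in every setting was not counted. Pdha1 was above the median in 14 settings, the exception being detection on at least 1 array, where it was 0.01 below. Pdhb, Pdhx and Pdk2 changed side. Quantile normalization, cyclic loess and the authors' deposited value table each moved Pdha1, Pdhb, Dld and Pdk1 upward relative to that median and Dlat, Pdhx, Pdk2, Pdk3 and Pdp1 downward. The probes of the first 4 genes all read at least 2661 on both arrays, and those of the others at most 1051. For Pdha1 the value relative to the median went from 0.30 to 0.55 with quantile normalization. Scaling to the array median lowered every difference by 0.61 and left each distance from the all-gene median as it was. It took Dld, Pdk1 and Pdp1 past 2-fold lower, to -1.21, -1.13 and -1.27. In that setting 3306 of the 10517 measured genes were at least 2-fold lower.

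**Figure D4:**
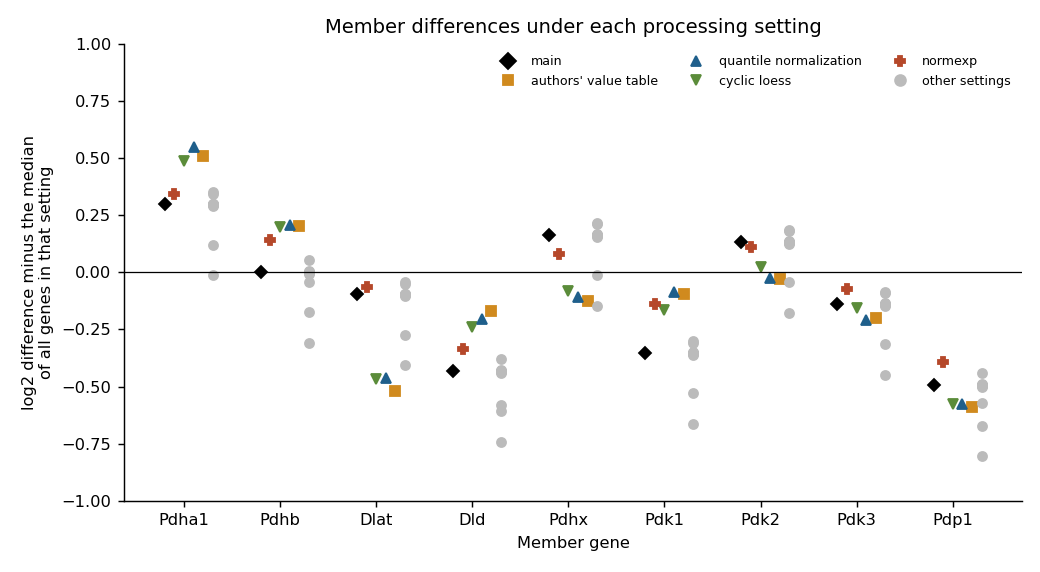
The log2 difference of each measured member minus the median of all genes, under the main setting (black diamonds), 4 alternatives with their own symbols and 10 other settings (grey). Dlat, Dld, Pdk1, Pdk3 and Pdp1 stay below 0 and Pdha1 is above it in all but 1 setting.

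Genes around the complex were taken from a list of 41, of which 33 were measured on both arrays. In that list 2 genes were at least 2-fold higher in SoNar-high, against a background of 4.87%, and 1 was at least 2-fold lower, against 1.68%. The list median was -0.31. The higher genes were Dbt, the acyltransferase core of the branched-chain dehydrogenase (1.55), and Ppara, a fatty acid-sensing nuclear receptor that drives Pdk4 (1.35). Dbt rests on 1 probe and Ppara on 1 of its 3. The lower gene was Ppargc1a, a coactivator of mitochondrial genes (-1.54), from 1 of 2 probes at a level of -4.37 on the SoNar-high array. That level is under the lowest detected level of the SoNar-low array, -3.36, so Ppargc1a drops out when 1 limit is used for both arrays. The next lowest was Slc19a2, a thiamine transporter (-0.79).

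At the pyruvate branch point, both subunits of the mitochondrial pyruvate carrier were measured. Mpc1 had a difference of -0.43 with 2 probes that agreed (-0.44 and -0.42), and Mpc2 one of 0.76 from 1 probe. Ldha, the lactate dehydrogenase subunit that favours lactate formation, averaged 0.23, but its 3 probes ran from -0.12 to 0.61. Ldhb had a difference of -0.73 from a dim probe, and Pcx, which carboxylates pyruvate, one of 0.29, also from 1 dim probe. The sign for Pcx was not stable. In the authors' deposited value table its difference was -0.17, below 0 but still above the all-gene median there. Pdp2, the second phosphatase, had a difference of -0.08. Pdpr, which restrains the phosphatase, was detected in SoNar-high alone at a level that allows no fold. Of the factors that control kinase genes, Hif1a had a difference of -0.46 and Foxo1 one of -0.62, with probes at -0.94 and -0.30. Pparg, detected in SoNar-high alone, was at least 2.27-fold higher there in the main scaling.

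Dld also serves the oxoglutarate and branched-chain dehydrogenases and the glycine cleavage system, and the partner genes of these were set beside it after their values had been seen. Dlst, the core of the oxoglutarate complex, had a difference of -0.56, Bckdhb one of -0.51 and Bckdha one of -0.31, the last 2 being subunits of the branched-chain decarboxylase. Gcsh and Gldc of the glycine cleavage system had differences of -0.38 and -0.37. Ogdh averaged 0.24, with 3 probes from -0.52 to 1.32. Dhtkd1 and Amt were well above background on neither array. With Dbt at 1.55, the partners did not all lie on the side of Dld.

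**Figure D5:**
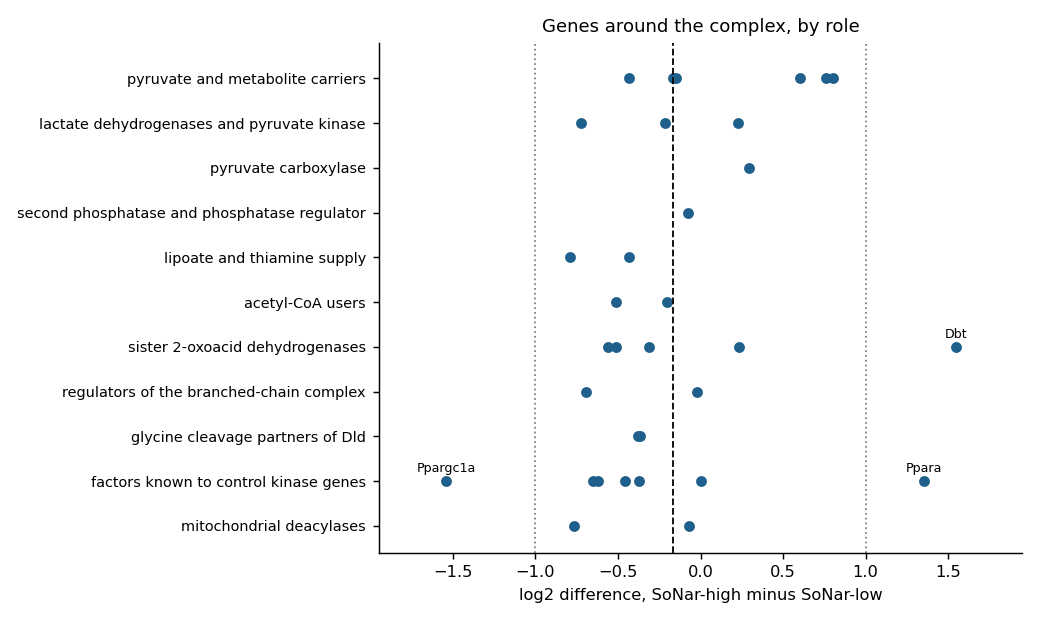
SoNar-high minus SoNar-low, as log2 difference, for the 33 measured genes around the complex, 1 point per gene, in rows by role. The dashed line is the all-gene median of -0.17 and dotted lines mark 2-fold, which Dbt and Ppara pass on the higher side and Ppargc1a on the lower.

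The labelled cell type was checked with marker genes. Of 8 B lineage markers 7 were well above background on both arrays, among them Cd79a and Pax5, while Igll1 was not on either. All 8 neutrophil markers were measured and lay above the all-gene median. Their summed signal, in units of each array's 75th percentile, was 47.0 in SoNar-high and 37.7 in SoNar-low, and that of the B lineage markers was 46.8 and 54.6. Such sums weigh bright probes most. The brightest B lineage markers, Cd79b and Blnk, had log2 differences of 0.04 and -0.72. The median of the 7 measured B lineage markers was -0.03, with 4 above the all-gene median and 3 below it. The sums of the other lists were smaller. Those of erythroid markers were 1.21 in SoNar-high and 0.42 in SoNar-low, and of natural killer markers 0.75 and 0.35. Those of monocyte markers were 0.48 and 0.28, and of stromal and endothelial markers 1.54 and 1.12. All of these were higher in SoNar-high, but they include markers not well above background. Detected on the SoNar-low array were 1 of 5 erythroid, 2 of 4 natural killer, 1 of 3 monocyte and 4 of 5 stromal and endothelial markers. On the SoNar-high array these numbered 4, 3, 2 and 4. Of the erythroid markers, Hba-a1 read 481 in SoNar-high and 118 in SoNar-low. The T cell sum was 2.54 in SoNar-high and 3.51 in SoNar-low, where Lck had a log2 difference of -0.94 while Cd3e and Cd4 had ones of 1.26 and 1.72. The part of these cells in the values of the pyruvate dehydrogenase genes was not tested.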

How the data were processed

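Total RNA of each sorted group was labelled with Cy3 and hybridised to 1 Agilent mouse array per group. Spot intensity values come from the deposited scanner files, background-subtracted and detrended within each array by Agilent Feature Extraction 11.0.1.1, per the file headers, although version 9.1 stands in the submitters' processing notes. A second deposited table gives log2 values made by the authors, with the same median of 5.90 in both columns. How they were made is not given in the sources used here, so the table served as an alternative. Array annotation is of mm9, per the file headers.

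Processed signals were put on the log2 scale and reduced by the 75th percentile of the non-control spots of the same array. Spots marked non-uniform or population outliers (685, none of a member) were removed. Probes were named through RefSeq accessions (27115 of 39085), and a gene's value was the mean of its probes well above background on both arrays. A difference of 2-fold was the rule of size. For a gene detected on 1 array a lower bound of the fold was taken against the other array's detection limit, or against the undetected probe itself where that was higher. Summed marker signals average all spots of a gene.

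Members and lists were chosen with earlier results of these data known, and 2 listed genes are not reported here. Named are all members, list genes past 2-fold, the 2 highest and 2 lowest, and a fixed set. The partner genes of Dld were named in addition, after their values had been seen. The probe and gene averages and the 2-fold rule were run on simulated arrays with known differences. Group medians and marker sums were not covered. Promoter sequences are from RefSeq, GRCm38.p6. Alternatives were 12 planned and 2 added after seeing the data. Normexp used an offset of 50 and the median spot signal. Python 3.11.15, numpy 2.4.6, pandas 2.3.3, R 4.3.3 and limma 3.58.1 were used.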

Additional observations from a re-analysis of the deposited data

How the results depend on the processing

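No paired analysis was possible because there is 1 array per group, and none could be left out. Over the 14 alternatives, 77 of 126 member values stayed within 0.15, the SD of repeat spots, and 49 moved further. Many of the 77 could not move. The filters, the limit on accession type and the kept outlier spots changed no measured member probe, so they repeat the main values. Taking the brightest probe leaves genes of 1 probe as they were. The tally is therefore no measure of stability. No member value was past 2-fold in the main setting. With median scaling 3 of 9 members were at least 2-fold lower, as were 3306 of the 10517 measured genes. That setting gave a subunit median of -0.78, a kinase and phosphatase median of -1.03 and a pathway list median of -0.92. When the percentile was taken over shared spots, those detected on both arrays, they were 0.048, -0.20 and -0.097, and after centring 0.0017, -0.25 and -0.14. These settings shift all genes alike, and each moved every measured member by more than 0.15. The subunit median was also -0.34 in the authors' table and -0.32 with quantile normalization, and the gap between subunits and regulators was 0.023 and 0.040 there and 0.077 with cyclic loess. The cause was not tested. Pathway genes at least 2-fold higher numbered 0 with median scaling, and 1 with normexp and with the stricter filter, against 2. They numbered 5 where 1 detecting array sufficed, beside 3203 of the 15984 genes covered there. With no filter they numbered 4 of 40, beside 2775 of 20618 genes. Pathway genes at least 2-fold lower numbered 13 of 33 with median scaling, beside the 3306 of 10517 genes. They numbered 2 in the authors' table, with cyclic loess and with quantile normalization, and 0 with normexp, the stricter filter and the common limit. All genes at least 2-fold higher numbered 139 with median scaling, 806 with the percentile over shared spots and 262 with normexp. They numbered 337 of 9320 with the stricter filter, 3203 of 15984 where 1 detecting array sufficed and 2775 of 20618 with no filter. Those lower numbered 3306 with median scaling, 67 with that percentile, 60 with normexp and 430 in the authors' table. They numbered 300 with cyclic loess, 350 with quantile normalization and 70 after centring. With no filter they were 1751 of 20618, and with the common limit 114 of 10371. Of the genes past 2-fold, 74.3% were higher in the main setting, and between 4.03% (median scaling) and 94.9% (detection on 1 array) in the others.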
